A study of Mus musculus with 34 samples.

Results

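The comparison described here is between the Y551A-Dim line and the wild-type (WT) line before any hormone was added. It rests on 6 of the series' 34 samples, chosen by their labels alone: the 3 Y551A-Dim and the 3 WT libraries of library set 1 that received ethanol (EtOH), the vehicle. Both lines derive from 3617 mouse mammary adenocarcinoma cells whose own glucocorticoid receptor (GR, gene Nr3c1) was knocked out and replaced by a stably expressed GFP-tagged mouse GR, in the WT form or as Y551A-Dim. The labels do not say what Dim stands for, so the name is used as given. All 6 libraries came from cells kept in 10% charcoal/dextran-treated serum and 5 µg/ml tetracycline for at least 24 h and then given EtOH for 2 h. Drosophila S2 cells equal to 5% were added at harvest as a spike-in. Other libraries of set 1 are used beside them: the same lines after 2 h of 100 nM dexamethasone (Dex), a synthetic glucocorticoid, and the Y551A line in EtOH. The labels name 1 line per receptor form, so the receptor form and any other difference between the lines cannot be told apart. They give 3 libraries per condition without saying whether these came from separate cultures, so p-values measure the spread between libraries. They also name 2 preparation kits, used in 2 batches, and do not assign the libraries to them.

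GR is a ligand-activated transcription factor. Without hormone most of it is held in the cytoplasm by the Hsp90 chaperone machinery, and a glucocorticoid releases it to the nucleus, where it binds glucocorticoid response elements or acts through other factors such as AP-1 and NF-kB. Expression before hormone therefore describes the state in which each line meets Dex, and the serum used here is stripped of most steroids.

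The 6 libraries held 52815890 to 64449628 counted reads and had a count in 20426 to 21185 genes. Between 1.78% and 2.54% of the reads were from mitochondrially encoded genes. Levels are given in CPM, the count scaled to the TMM-normalized library size, and changes as log2 fold changes with their standard error (SE). A gene was called when edgeR's quasi-likelihood test, fitted over the 18 libraries of set 1, gave a Benjamini-Hochberg adjusted p below 0.05. In the first principal component of these 18 libraries, which held 29.4% of the variance, the 6 WT libraries, the 6 Y551A-Dim libraries and the 6 Y551A libraries formed separate ranges, with Y551A-Dim in between.

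The 2 lines differed widely before hormone. Of 16140 genes tested, 3757 were called, which is 23.3% of all genes. Of these 1617 were higher in Y551A-Dim (10% of all genes) and 2140 lower (13.3%). Most differences were small: 766 genes (4.75%) also differed by at least 1.5-fold, and among these the higher genes outnumbered the lower ones, 556 (3.44%) against 210 (1.3%). When the fit was limited to protein-coding genes the split moved to 1661 higher and 1442 lower, a fit that changes both the genes tested and those used for scaling. With RLE scaling of the same genes 1712 were higher and 1934 lower. The median change over all genes was -0.011 on the log2 scale.

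**Figure D1:**
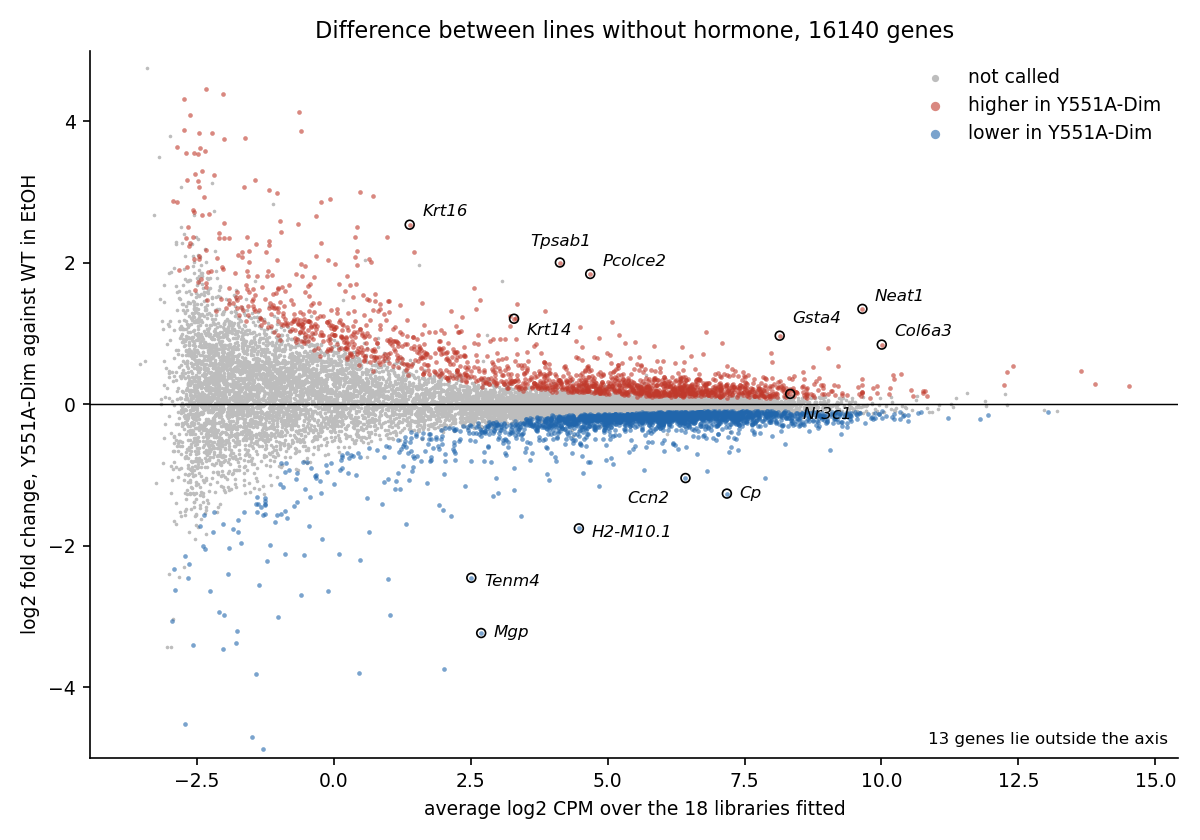
Each point is a gene, with its average level in log2 CPM over the 18 libraries on the x axis and its log2 fold change between Y551A-Dim and WT in EtOH on the y axis; colours mark called genes and grey the rest. Mgp at -3.24 and Tenm4 at -2.45 are among the lowest labelled genes, and Krt16 at 2.54 and Tpsab1 at 2.01 among the highest.

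Nr3c1, the receptor transcript (chromosome 18), was read first because it is the gene replaced in these cells. It stood at 277.3, 286.7 and 276.1 CPM in the 3 WT libraries and at 307, 314.2 and 309.4 CPM in Y551A-Dim. The groups did not overlap, and Nr3c1 was 1.11-fold higher in Y551A-Dim (log2 change 0.15 ± 0.031, SE, n = 3 per group; edgeR adjusted p = 0.000902). Counts per gene name do not separate the introduced receptor from what is left of the endogenous transcript, and the receptor protein was not measured. Of 25 tested genes for GR and its chaperones and coregulators, 3 were called higher and 5 lower, near the 10% and 13.3% of all genes. Their median was -0.06 and ran from -0.061 to 0.004 under the alternative settings. Hsp90ab1, the constitutive Hsp90, was 0.19 lower on the log2 scale (SE 0.036, edgeR adjusted p = 0.000382) and Ncoa2, a p160 coactivator on chromosome 1, was 0.30 higher (SE 0.055, edgeR adjusted p = 0.000205). The count of 5 lower genes fell to 2 or 3 without WT replicate 1, 2 or 3 or Y551A-Dim replicate 1 or 3. Hras was read because a ras gene sits behind the hormone-responsive MMTV repeats known in the parental cells. It overlapped between the lines, at 117.3 ± 2.28 CPM in WT and 116.5 ± 4.16 CPM in Y551A-Dim (SD, n = 3), and was not called (log2 change -0.01 ± 0.04, SE; edgeR adjusted p = 0.889).

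Among named genes with an average level of at least 1 log2 CPM, those with the highest changes included keratins, protease inhibitors and proteins of the cell surface. That average is over the 18 libraries fitted, so levels outside the comparison count as well. Krt16 and Add2, both low in the lines compared, were at 5.904 and 6.255 CPM in Y551A in EtOH. Genes placed at either end by the naming rule had to have no overlap between the groups. Krt16, a keratin of stressed epithelium (mm10 chromosome 11, 100246091 to 100248902), stood at 0.3876, 0.3921 and 0.4374 CPM in WT and at 2.56, 2.34 and 2.19 CPM in Y551A-Dim. The 72 WT and 398 Y551A-Dim reads gave a 5.82-fold higher level (log2 change 2.54 ± 0.197, edgeR adjusted p = 4.51e-10). Its neighbour Krt14, the keratin of basal epithelium on the same chromosome, rose from 3.553, 3.497 and 3.29 CPM to 7.532, 8.339 and 8.099 CPM (2.31-fold, log2 change 1.21 ± 0.084, edgeR adjusted p = 6.18e-11). The keratin genes are similar in sequence, so some reads may be shared among them. Tpsab1, a mast cell tryptase (chromosome 17, 25343245 to 25345562), was at 2.132, 1.694 and 2.244 CPM in WT and 8.471, 8.43 and 7.327 CPM in Y551A-Dim. The change was 4.01-fold (log2 2.00 ± 0.129, edgeR adjusted p = 1.32e-11). Pcolce2, an enhancer of procollagen C-terminal cleavage (chromosome 9, 95637601 to 95698096), rose from 6.712 ± 1.03 to 24.11 ± 0.944 CPM (SD, n = 3; log2 1.84 ± 0.087, SE; edgeR adjusted p = 6.41e-14). Add2, the beta subunit of the membrane skeleton protein adducin (chromosome 6, 86028681 to 86124409), was 4.46-fold higher but low, at 0.422 ± 0.109 against 1.867 ± 0.257 CPM.

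The other genes that the naming rule placed at this end rose between 2.38-fold and 3.12-fold. They were Gsta2, a glutathione S-transferase, the serine protease inhibitors Serpinb1a, Serpinb9g and Serpinb9f, the deubiquitinase gene Usp17le, the orphan receptor gene Mrgpre, the protocadherin-like Fat2, the annexin Anxa8 and the long non-coding RNA Neat1. The Serpinb9, Gsta and Usp17le genes belong to clusters of close copies, so how reads were shared among the copies is uncertain. Among abundant genes, the 3 chains of collagen VI rose together. Col6a1 went from 274.6, 267.7 and 271.8 CPM in WT to 469.1, 500.8 and 445.3 CPM in Y551A-Dim (log2 0.80 ± 0.048, edgeR adjusted p = 3.78e-12), and Col6a2 and Col6a3 rose by 0.86 and 0.84. Gsta4, which conjugates lipid peroxidation products to glutathione, rose from 154.1 ± 3.97 to 301.9 ± 3.38 CPM (SD, n = 3; log2 0.97 ± 0.050, SE; edgeR adjusted p = 2.25e-13). In each of these 4 genes the lowest Y551A-Dim library lay above the highest WT library, which was a condition for naming it.

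At the same level minimum, the lowest changes included secreted and matrix proteins. Mgp, the matrix Gla protein that inhibits calcification (chromosome 6, 136872435 to 136875823), fell from 15.87, 16 and 16.92 CPM to 1.64, 1.668 and 1.873 CPM (9.41-fold, log2 -3.24 ± 0.111, SE, n = 3 per group; edgeR adjusted p = 8.3e-17). Tenm4, a teneurin of cell adhesion (chromosome 7, 96171246 to 96911093), fell from 11.89, 13.06 and 13.35 CPM to 2.579, 2.32 and 2.075 CPM (log2 -2.45 ± 0.236, edgeR adjusted p = 2.21e-08). The groups were far apart in both genes, and no overlap was a condition for naming them. Lcn2, the siderophore-binding acute-phase protein and a known Dex-induced gene, was 7.86-fold lower, but on 14, 8 and 14 reads in WT and 2, 0 and 2 in Y551A-Dim (log2 -2.97 ± 0.734, edgeR adjusted p = 0.00402). Its level after Dex rather than its level in EtOH carried it past the abundance minimum of the naming rule. Fabp4, named below, was likewise at 17.5 CPM in WT with Dex, against 2.129 CPM in WT and 0.7491 CPM in Y551A-Dim in EtOH.

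Cp, the ferroxidase ceruloplasmin (chromosome 3, 19957054 to 20009145), was the most lowered of the abundant genes. It read 232.2, 233.7 and 226.4 CPM in WT and 94.16, 94.56 and 99.77 CPM in Y551A-Dim, a 2.4-fold lower level (log2 -1.26 ± 0.049, edgeR adjusted p = 7.6e-16). The actin regulator Eps8, the kinase gene Plk2 and the junction protein gene Cgnl1 fell by 0.67, 0.64 and 0.60 on the log2 scale, and Rprl3, a small RNA related to the RNase P RNA, by 0.65. Other genes at this end fell between 2.3-fold and 3.37-fold: H2-M10.1, a non-classical class I gene with close copies, the minor fibrillar collagen Col11a1, the adhesion receptor Adgrl2, VE-cadherin (Cdh5), the fatty acid binding protein Fabp4, the formin Daam2, the guanine nucleotide exchange factor Dock8 and the cyclic nucleotide phosphodiesterases Pde1a and Pde4b. Each is a gene whose 3 Y551A-Dim libraries all lay below the 3 WT libraries, since that was a condition for naming it.

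**Figure D2:**
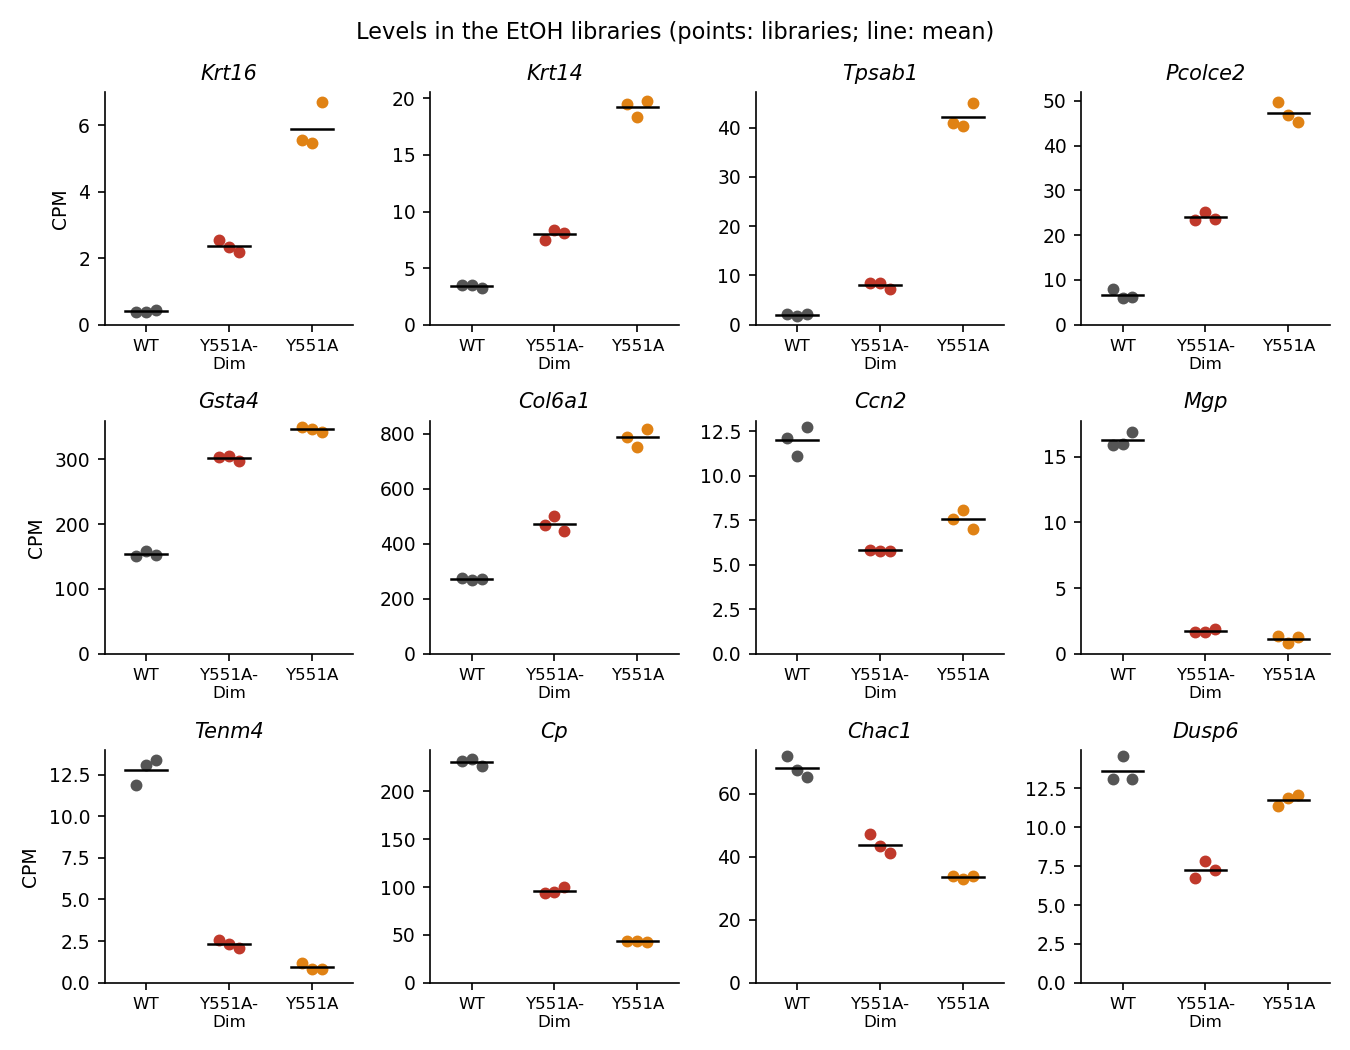
Each panel shows a gene's level in CPM (y axis, from 0) in the 3 EtOH libraries of WT, Y551A-Dim and Y551A, with the mean as a line. For Krt16, Krt14, Tpsab1, Pcolce2, Col6a1, Tenm4, Cp and Chac1 the Y551A-Dim libraries lie between those of WT and Y551A, while Dusp6 is lowest in Y551A-Dim, at 7.283 ± 0.525 CPM.

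Genes of the integrated stress response fell together. This pathway slows translation through phosphorylated eIF2 and induces, through ATF4, genes for amino acid uptake, amino acid synthesis and tRNA charging. Of 26 tested members 23 were called lower, 0 higher and 3 were not called, beside 13.3% lower and 10% higher of all genes. The median was -0.36 against -0.011 over all genes. Under the 15 alternative settings 22 or 23 members were called lower. The transcription factor Atf4 itself (chromosome 15, 80255184 to 80257541) went from 855.9, 861.5 and 835.1 CPM in WT to 666.4, 695.2 and 681.4 CPM in Y551A-Dim (log2 -0.32 ± 0.037, edgeR adjusted p = 5.16e-07). Chac1, which degrades glutathione, went from 71.95, 67.64 and 65.27 CPM to 47.14, 43.42 and 41.04 CPM (log2 -0.64 ± 0.052, edgeR adjusted p = 1.05e-09). The groups did not overlap in either gene. Trib3, a pseudokinase that feeds back on ATF4, fell by 0.55, the partner factor Atf5 by 0.49 and Ddit3, which encodes CHOP, by 0.45. The amino acid transporter genes Slc7a5 and Slc7a11 fell by 0.45 and 0.55, Asns, asparagine synthetase, by 0.42 and the mitochondrial PEP carboxykinase gene Pck2 by 0.51. Ddit3 counts are summed over several gene identifiers of that name. Slc7a1, Cars and Nupr1 were the members not called, at -0.11, -0.06 and -0.02. Atf4, Ddit3, Asns, Pck2 and Slc7a11 are outside the naming rule and were chosen after their values were seen.

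The promoters of these genes are shown because they share a short motif known as the composite site of ATF4 and C/EBP factors. The sequence TGATGNAA was searched on both strands of the 250 bases before each RefSeq start (GRCm38.p6). It was present in 7 of the 22 tested members with a RefSeq promoter (31.8%), against 3.91% of 27025 genes with a RefSeq promoter and 2.37% of the 10147 of them tested here. Among the 20 members called lower it was in 6, or 30%: Chac1, Slc7a11, Pck2, Asns, Gars and Aars. Nupr1 has it as well and was not called. The 4 with the largest decreases follow, each the 250 bases before the start, 5′ to 3′ in the direction of transcription, with the match in capitals. Asns lies on the minus strand (chr6:7693210-7693459) with the match beginning 23 bases before the start, Chac1 on the plus strand (chr2:119350992-119351241) with it at 193, Pck2 on the plus strand (chr14:55540016-55540265) with it at 103, and Slc7a11 on the minus strand (chr3:50443614-50443863) with matches at 66 and 47.
Asns: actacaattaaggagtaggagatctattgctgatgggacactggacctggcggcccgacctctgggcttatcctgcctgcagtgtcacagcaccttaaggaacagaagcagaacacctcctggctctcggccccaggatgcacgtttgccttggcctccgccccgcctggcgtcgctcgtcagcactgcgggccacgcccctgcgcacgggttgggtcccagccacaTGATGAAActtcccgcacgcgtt
Chac1: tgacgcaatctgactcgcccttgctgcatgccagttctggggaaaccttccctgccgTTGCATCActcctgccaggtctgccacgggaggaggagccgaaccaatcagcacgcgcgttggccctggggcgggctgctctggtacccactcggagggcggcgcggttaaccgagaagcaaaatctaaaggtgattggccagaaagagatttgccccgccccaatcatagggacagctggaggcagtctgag
Pck2: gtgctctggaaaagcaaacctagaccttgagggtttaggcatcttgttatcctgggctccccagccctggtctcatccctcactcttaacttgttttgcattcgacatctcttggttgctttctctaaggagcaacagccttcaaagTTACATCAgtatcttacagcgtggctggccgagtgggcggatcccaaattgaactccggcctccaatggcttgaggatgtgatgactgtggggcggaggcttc
Slc7a11: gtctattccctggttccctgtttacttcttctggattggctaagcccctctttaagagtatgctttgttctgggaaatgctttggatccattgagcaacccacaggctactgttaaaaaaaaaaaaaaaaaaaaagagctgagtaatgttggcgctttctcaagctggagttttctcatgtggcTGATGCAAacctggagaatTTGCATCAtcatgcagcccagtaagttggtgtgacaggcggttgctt
A match is a description of the letters, and binding at these sites was not measured here.

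Asns fell from 786.6, 804.7 and 776.3 CPM to 588.1, 597.5 and 580 CPM (edgeR adjusted p = 1.79e-08) and Pck2 from 173.9, 172.5 and 170.5 CPM to 122.1, 130.5 and 111.1 CPM (edgeR adjusted p = 4.4e-08). Slc7a11, the cystine carrier, fell from 32.27, 31.73 and 33.58 CPM to 22.1, 24.26 and 20.05 CPM (edgeR adjusted p = 4.8e-05). In all 3 genes every Y551A-Dim library was below every WT library. Members without the motif fell as well, among them Trib3, Atf5, Sesn2 and Mthfd2.

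Genes of protein synthesis, sterol synthesis and chromatin packaging were also lower as groups, by smaller amounts. Their counts stand beside 13.3% of all genes called lower and 10% called higher. Of 42 cytosolic ribosomal protein genes 27 were called lower and 1 higher (median -0.16), with Rpl6 at -0.30 and Rps6 at -0.30 among the lowest. The 1 that rose, Rpl7 (0.16 ± 0.037, SE, edgeR adjusted p = 0.00301; named after its value was seen), is the only member of that list on chromosome 1. Of 24 tested genes of cholesterol synthesis 17 were lower and 1 higher (median -0.20). Insig1, which retains SREBP in the endoplasmic reticulum, fell from 571.9 ± 22.4 to 440 ± 22.5 CPM (SD, n = 3; log2 -0.38 ± 0.061, edgeR adjusted p = 4.78e-05) and Fdft1, which encodes squalene synthase, by 0.29. Of 44 replication-dependent histone genes 27 were lower and 0 higher (median -0.20), and Hist2h3b had the largest decrease, 0.45. The histone count was 17 without WT replicate 3 and 14 without Y551A-Dim replicate 3. Histone genes are near-identical copies of each other, so counts per gene are uncertain, and a total RNA library is needed to see these transcripts, which lack poly(A) tails.

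Proliferation genes did not follow the histones as a group: of 34 tested cell cycle genes 7 were called lower, 1 higher and 26 not called (median -0.03, and between -0.045 and 0.012 under the alternative settings). Over all genes 13.3% were called lower and 10% higher. Mki67, the Ki-67 proliferation marker, was the one that rose, from 909, 931.9 and 985.7 CPM to 1139, 1149 and 1095 CPM (log2 0.26 ± 0.055, edgeR adjusted p = 0.000966). Its groups did not overlap. The cyclin-dependent kinase gene Cdk4, the helicase subunit gene Mcm2 and the inhibitor gene Cdkn1b fell by 0.16 (Cdk4), 0.17 (Mcm2) and 0.16 (Cdkn1b). The Mcm2 call was lost without Y551A-Dim replicate 3 and with length and GC offsets. The count of lower members was 3 or 4 when WT replicate 1 or 2 or Y551A-Dim replicate 1 or 3 was left out. Cdkn1a, the p21 inhibitor, rose from 35.55 ± 0.0993 to 45.17 ± 2.43 CPM (SD, n = 3; log2 0.35 ± 0.060, edgeR adjusted p = 0.000116).

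Most inflammatory genes were lower, and a pair of chemokine genes higher. Of 20 tested NF-kB and inflammatory genes 14 were lower and 2 higher (median -0.33), beside 13.3% and 10% of all genes. Nfkbia, the inhibitor induced by NF-kB itself, fell from 42.67, 41.04 and 41.44 CPM to 30.42, 30.76 and 30.74 CPM (log2 -0.44 ± 0.057, edgeR adjusted p = 2.31e-06). Nfkb2 and Tnfaip2 fell by 0.41 and 0.36, and Relb, Irf1 and Cxcl1 were at -0.47, -0.32 and -0.68, all called. The monocyte chemokine genes Ccl2 and Ccl7, neighbours on chromosome 11, rose. Ccl7 went from 11.21, 10.74 and 9.432 CPM to 22.51, 19.87 and 24.66 CPM (2.13-fold, log2 1.09 ± 0.104, edgeR adjusted p = 1.9e-08), and Ccl2 from 14.42, 13.66 and 13.83 CPM to 19.15, 18.07 and 22.13 CPM (1.42-fold, log2 0.50 ± 0.073, edgeR adjusted p = 1.25e-05). Neither chemokine overlapped between the lines.

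Of 24 immediate early and AP-1 genes 10 were lower and 2 higher (median -0.24), beside 13.3% and 10% of all genes. Klf4 fell by 0.56, Ier3 by 0.41 and Myc by 0.38, the orphan receptor genes Nr4a1 and Nr4a2 were at -0.50 and -0.51, and Jun was at -0.30. Klf10, a TGF-beta induced factor, was higher by 0.37, and Fos was not called, at -0.40. Of 24 genes that feed back on growth factor signalling 10 were lower and 3 higher (median -0.11), beside the same shares of all genes. Dusp6, the phosphatase that inactivates ERK, went from 13.11, 14.58 and 13.1 CPM to 6.763, 7.814 and 7.272 CPM (log2 -0.90 ± 0.082, edgeR adjusted p = 8.4e-09). The Sprouty gene Spry1 fell by 0.68, and the ERK-induced ETS factor genes Etv5 and Etv4 fell by 0.62 and 0.37. For Dusp6 the lowest WT library was well above the highest Y551A-Dim library.

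**Figure D3:**
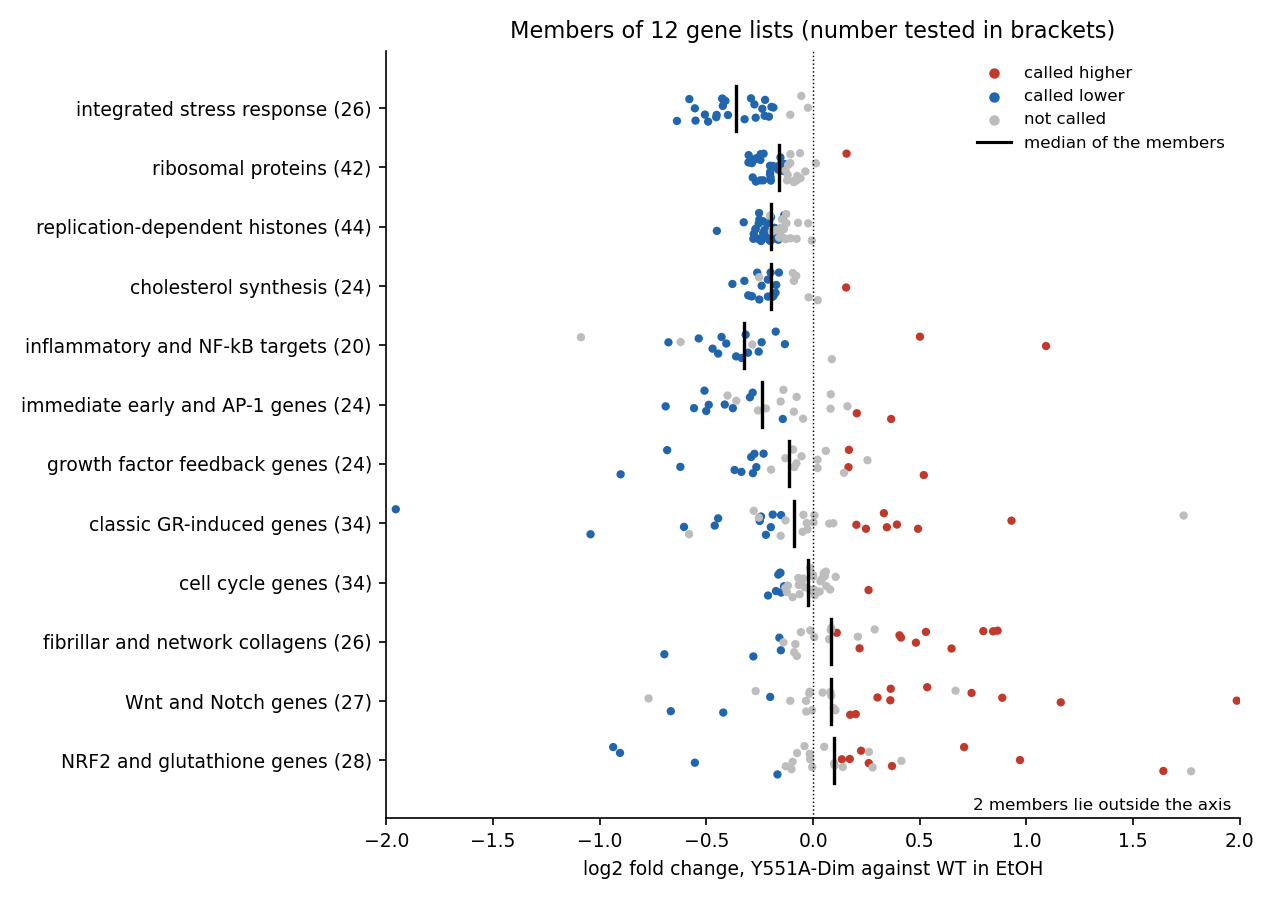
Each point is a tested member of a gene list, placed on the x axis by its log2 fold change between Y551A-Dim and WT in EtOH; colours mark called members and the black bar the list's median. Members of the integrated stress response lie left of 0 throughout, with a median of -0.36, while collagen VI chains and Notch genes lie to the right.

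Known GR-induced genes moved in both directions before hormone. Of 34 tested, 12 were called lower and 8 higher, beside 13.3% and 10% of all genes, and the median was -0.09. Ccn2, a matricellular growth factor (chromosome 10, 24595442 to 24598683), was at 12.14, 11.1 and 12.74 CPM in WT and 5.841, 5.783 and 5.803 CPM in Y551A-Dim, without overlap (2.06-fold lower, log2 -1.04 ± 0.068, edgeR adjusted p = 1.74e-11). Errfi1, an inhibitor of the EGF receptor, fell by 0.60 and Ddit4, an inhibitor of mTORC1, by 0.46. The 8 higher genes were Orm1 at 2.60 (SE 0.628), Orm3 at 0.93, Pdk4 at 0.49, Gadd45g at 0.39, Cdkn1a at 0.35 and Tgfbr1 at 0.20, with Il1r1 at 0.33 and Per2 at 0.25. The last 2, Il1r1 and Per2, lie on chromosome 1. The best known hormone targets differed little. Sgk1, the glucocorticoid-regulated kinase, was 1.15-fold lower at 148.1 ± 1.94 against 129.1 ± 6.59 CPM, and Tsc22d3, which encodes GILZ, was 1.17-fold lower at 33.52 ± 1.75 against 28.79 ± 1.4 CPM (SD, n = 3). Fkbp5, an Hsp90 co-chaperone that lowers GR affinity, was 1.11-fold lower (log2 -0.15 ± 0.047, edgeR adjusted p = 0.0206), a call lost under 8 of the other settings, among them leaving out any single library except Y551A-Dim replicate 2. Per1, a circadian repressor, was at 3.755 ± 0.749 CPM in WT and 3.729 ± 0.268 CPM in Y551A-Dim (SD, n = 3; log2 0.00 ± 0.150, edgeR adjusted p = 0.997), and Dusp1 was at 8.614 ± 0.274 and 8.439 ± 0.246 CPM (edgeR adjusted p = 0.813). The 2 lines overlapped for Per1 and Dusp1.

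The promoter of Sgk1 is shown because Sgk1 was 1 of 3 genes among 27025 with a RefSeq promoter, a share of 0.0111%, that had an exact glucocorticoid response element, AGAACA and TGTTCT with NNN between them, within 250 bases of the start on either strand. Of 27 tested GR-induced genes with a RefSeq promoter it was the 1 with this exact match (3.7%). The match lies at 189 bases before the start, in capitals below (GRCm38.p6, plus strand, chr10:21993640-21993889). The Sgk1 annotation begins further upstream, so this is the promoter of a shorter transcript, and the other 5 Sgk1 windows of the table have no such match.
Sgk1: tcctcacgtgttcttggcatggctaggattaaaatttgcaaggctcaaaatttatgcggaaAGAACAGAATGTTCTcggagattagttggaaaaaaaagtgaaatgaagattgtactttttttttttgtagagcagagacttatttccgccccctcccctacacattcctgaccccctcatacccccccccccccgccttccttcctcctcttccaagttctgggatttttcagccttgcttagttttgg
Binding of GR to this sequence was not measured here.

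With Dex the same 2 lines were compared in 6 libraries that the EtOH comparison does not use. There 4196 genes were called (26% of 16140), of which 1929 were higher (12%) and 2267 lower (14%) in Y551A-Dim, and 798 (4.94%) differed by at least 1.5-fold. Of the 1617 genes higher in EtOH, 1060 were also higher in Dex, which is 65.6% of the EtOH list and 55% of the Dex list. Of the 2140 lower in EtOH, 1357 were also lower in Dex (63.4% of the EtOH list and 59.9% of the Dex list). Only 24 genes higher in EtOH were called lower in Dex, and 13 lower in EtOH were called higher. Across the 3757 genes called in EtOH the 2 sets of line differences had a Pearson r of 0.824, a description across genes, which are not independent replicates. Mgp (-3.24 in EtOH and -3.20 in Dex), Krt16 (2.54 and 2.64), Cp (-1.26 and -1.18) and Chac1 (-0.64 and -0.44) were called in both. The line difference itself was called as different between Dex and EtOH for 238 genes, 1.47% of all tested: 95 upward (0.589%) and 143 downward (0.886%), with 91 (0.564%) of at least 1.5-fold. It was called for 120 of the 3757 called in EtOH.

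Of the 34 GR-induced genes 20 had a line difference that moved downward with Dex and 2 upward, beside the 1.47% of all genes called for it. In Dex 25 of the 34 were called lower and 3 higher, against 12 and 8 in EtOH. Sgk1 stood at 790.1, 788.1 and 793.1 CPM in WT with Dex and at 206.3, 192.2 and 206 CPM in Y551A-Dim with Dex. Its line difference was therefore -1.97 in Dex against -0.20 in EtOH, a change of -1.77 (edgeR adjusted p = 1.91e-18). Per1, level between the lines in EtOH, was at 31.02 ± 1.31 CPM in WT and 8.688 ± 0.918 CPM in Y551A-Dim with Dex (SD, n = 3; change of the difference -1.84, edgeR adjusted p = 2.3e-07). Ccn2 combined both, with a line difference of -1.04 in EtOH and -3.03 in Dex (change -1.99, edgeR adjusted p = 7.98e-15). Fabp4 went from -1.50 to -4.06 (change -2.55, edgeR adjusted p = 2.3e-07). Ccl2 and Ccl7 moved the other way, from 0.50 to 1.74 and from 1.09 to 2.26. The lower Dusp6 and Chac1 of Y551A-Dim showed no called dependence on treatment (edgeR adjusted p = 0.185 and 0.333), which does not show that their differences were equal. Of 24 growth factor feedback genes, 7 had a line difference moving upward with Dex and 0 downward, beside 0.589% and 0.886% of all genes. In Dex 10 of them were higher and 6 lower (median 0.064), and 7 and 5 of the 24 immediate early genes (median 0.001). All genes stood at 12% higher and 14% lower in Dex. The stress response list held 1 higher and 22 lower genes there (median -0.31), and the inflammatory list 3 and 7 (median -0.105).

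**Figure D4:**
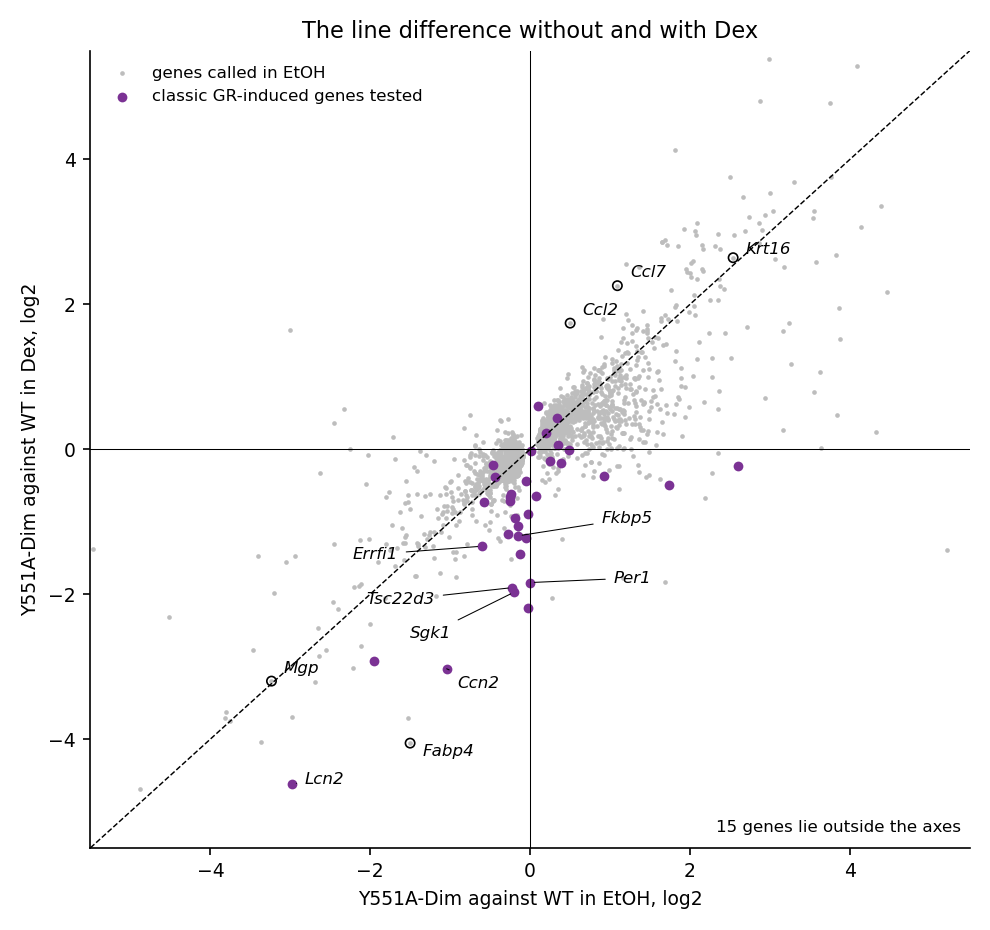
Each grey point is a gene called in EtOH, with the log2 difference between Y551A-Dim and WT in EtOH on the x axis and in Dex on the y axis; purple points are the 34 tested GR-induced genes and the dashed line marks equal differences. Mgp lies close to the line, while Sgk1, Tsc22d3, Per1 and Fkbp5 lie near 0 on the x axis and between -1.19 and -1.97 on the y axis.

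The collagen, Wnt and Notch, and NRF2 lists each held more called increases than decreases, beside 10% of all genes called higher and 13.3% lower. Of 26 collagens and collagen-processing genes 10 were higher and 4 lower (median 0.08). Besides collagen VI, the basement membrane chains Col4a1 and Col4a2 were at 0.41 and 0.41 and Col12a1 at 0.65, all called, while Col8a1 fell from 134.9 ± 2.49 to 83.21 ± 2.31 CPM (SD, n = 3; log2 -0.70 ± 0.040, edgeR adjusted p = 1.19e-12). The fibrillar collagen genes Col1a1, Col1a2 and Col3a1 were not called. Of 27 Wnt and Notch genes 10 were higher and 3 lower (median 0.085), and 6 were higher without WT replicate 1 or without Y551A-Dim replicate 1. Hes1, a Notch target, rose from 6.137, 7.057 and 5.971 CPM to 8.642, 9.409 and 9.77 CPM (log2 0.54 ± 0.080, edgeR adjusted p = 1.8e-05). The receptor gene Notch4 was 3.96-fold higher from a low level, at 0.2674 ± 0.118 against 1.086 ± 0.192 CPM, and Notch1, Notch2 and Notch3 were called at 0.36, 0.17 and 0.36. Sfrp2, a secreted Wnt antagonist, fell from 75.81 ± 2.44 to 47.77 ± 3.64 CPM (SD, n = 3; log2 -0.67 ± 0.052, edgeR adjusted p = 4.32e-10). Of 28 NRF2 and glutathione genes 8 were higher and 4 lower (median 0.10), beside 10% and 13.3% of all genes. The higher count was 14 when fitted on the groups compared alone, and the lower count 7 with length and GC offsets. Nqo1, a quinone reductase used as an NRF2 readout, rose from 68.93, 75.06 and 68.99 CPM to 115.8, 118.8 and 113.5 CPM (log2 0.71 ± 0.081, edgeR adjusted p = 3.64e-07), while Aldh1a1, a retinaldehyde dehydrogenase, fell from 135.1 ± 2.72 to 70.56 ± 1.51 CPM (log2 -0.94 ± 0.048, edgeR adjusted p = 2.25e-13).

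Chromosome 1 as a whole was higher in Y551A-Dim. Of its 675 genes whose average level reached 1 log2 CPM, 407 (60.3%) were called higher and 13 lower, whereas the share called higher was between 5.75% and 11.5% on each of the other 18 autosomes and X. The median change was 0.18 on chromosome 1 and between -0.061 and -0.025 on the others. All 20 bins of 10 Mb along the chromosome had a median above 0, and the 14 bins with at least 20 genes had medians from 0.137 to 0.222. The mean log2 level of chromosome 1 genes relative to the other chromosomes, centred over the libraries, was -0.149, -0.143 and -0.146 in the WT libraries and 0.083, 0.074 and 0.085 in Y551A-Dim. The difference of 0.227 corresponds to 1.17-fold, and the exact permutation test gave a two-sided p = 0.1, the smallest that 3 against 3 libraries allow. The Dex libraries of WT were between -0.154 and -0.132 and those of Y551A-Dim between 0.075 and 0.092, and the Y551A libraries in EtOH were at 0.059, 0.066 and 0.056. WT therefore lay apart from both other lines. The pattern was examined after the data were seen, and DNA copy number was not measured, so its part in the result was not tested. Fitted without chromosome 1 genes, 1341 genes were called higher and 1451 lower, and the counts of the stress response, cholesterol and inflammatory lists include 0, 1 and 1 tested members from that chromosome. Some named genes lie on it, among them Col6a3, Lamb3, Ncoa2 and Phlda3.

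**Figure D5:**
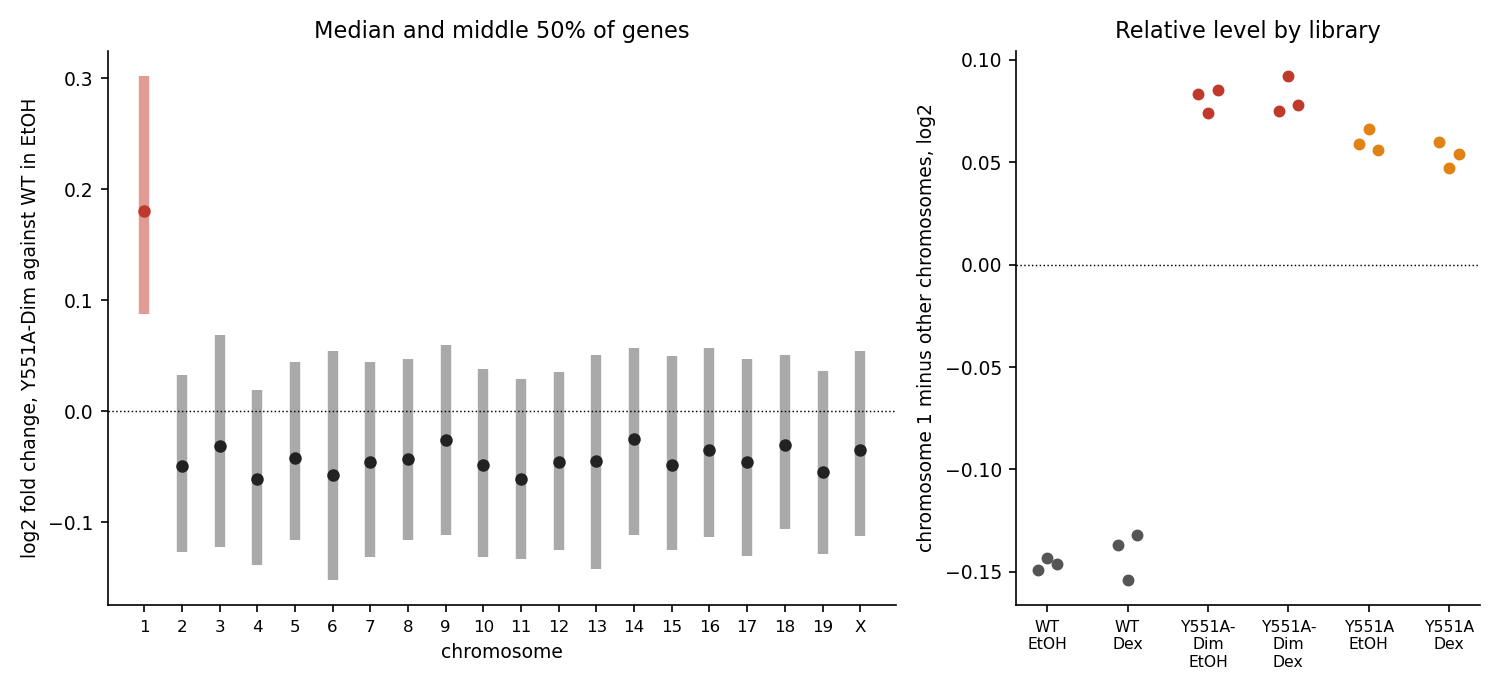
Left, for each chromosome on the x axis, the median (point) and middle 50% (bar) of the log2 fold changes between Y551A-Dim and WT in EtOH; right, the level of chromosome 1 genes relative to the others in log2 units for the 18 libraries of set 1. Chromosome 1 has a median of 0.18 against -0.061 to -0.025 elsewhere, and the 6 WT libraries lie below all 12 libraries of the other lines.

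Genes of several non-coding annotation classes were higher in Y551A-Dim than in WT, and unevenly so between its libraries. Of 1027 tested genes of the annotation class TEC, transcript models that still await experimental support, 189 were called higher and 2 lower, with a median of 0.51. Of 165 sense-intronic genes 24 were higher and 0 lower (median 0.51), and of 597 lincRNA genes 67 were higher and 13 lower (median 0.23). Of 12063 protein-coding genes 1187 were higher and 2049 lower (median -0.03). Over all genes 10% were called higher and 13.3% lower. The share of lincRNA genes called higher is near that of all genes, so this class stands out by its median and its few lower calls. Y551A shared the higher medians: against the same WT libraries its TEC, sense-intronic and lincRNA medians were 0.34, 0.30 and 0.19. Neat1, the scaffold of paraspeckles (chromosome 19, 5824708 to 5845478), was at 407.7, 345 and 393.3 CPM in WT and at 1121, 692.6 and 1105 CPM in Y551A-Dim (log2 1.35 ± 0.186, edgeR adjusted p = 6.16e-06). In Y551A in EtOH it was at 1004 CPM, not called as different from Y551A-Dim (edgeR adjusted p = 0.894). Malat1, another nuclear RNA, was at 4100, 3789 and 4372 CPM and 6321, 5068 and 6509 CPM (log2 0.55 ± 0.097, edgeR adjusted p = 0.00016; named after its value was seen). In both, Y551A-Dim replicate 2 lay nearest to WT. The mitochondrial ribosomal RNA mt-Rnr2 showed the same order, at 14150, 12070 and 15490 CPM against 9866 to 10150 CPM in WT, and its call was lost when gene length and GC content were modelled (log2 0.18, edgeR adjusted p = 0.21). Protein-coding genes took 91.8% to 91.9% of the counts in WT and 90%, 91.2% and 90.1% in the 3 Y551A-Dim libraries. The small RNA genes Rny1 and Rny3, which encode Y RNAs, went the other way, from 37.69 ± 3.62 to 19.27 ± 5.4 CPM and from 22.24 ± 2.17 to 11.21 ± 3.54 CPM (SD, n = 3). Differences in the kinds of RNA recovered move with these results, and their part in them was not tested. Without Y551A-Dim replicate 2, 3407 genes were called, and Atf4, Chac1, Col6a1 and Col6a2 kept their calls under each of the other settings.

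The labelled cell type is mammary adenocarcinoma, and its defining epithelial markers were nearly absent. Of 9 luminal markers Epcam and Cldn7 had 0 counts in all 6 libraries, Krt18 and Cdh1 had 4 counts each in WT and 0 in Y551A-Dim, and only Gata3 exceeded 1 CPM, at 6.961 ± 0.122 and 5.876 ± 0.7 CPM (SD, n = 3; log2 -0.24 ± 0.095, edgeR adjusted p = 0.0674). The summed luminal markers ran from 7.57 to 8.22 CPM in WT and from 5.90 to 7.99 CPM in Y551A-Dim. Fibroblast markers summed to between 206.8 and 210 CPM in WT and between 196 and 228.6 CPM in Y551A-Dim, almost all from Pdgfrb and Pdgfra, with Lum and Thy1 at 0. Basal markers summed to 5.59 to 5.87 CPM in WT and 8.23 to 9.32 CPM in Y551A-Dim, with Krt5 at 0. Krt14 rose while Trp63, the master factor of basal epithelium, fell from 1.793, 2.086 and 1.692 CPM to 0.3245, 0.5801 and 0.5877 CPM (log2 -1.90 ± 0.297, edgeR adjusted p = 3.17e-05), so the list did not move one way. Summed endothelial markers fell from between 10.71 and 10.99 to between 4.19 and 4.32 CPM through Cdh5 and Emcn, with Kdr at 0. Pecam1, of the same list, went the other way from 0.0424 to 0.155 CPM and was not called (log2 1.75, edgeR adjusted p = 0.1). Leukocyte markers stayed under 9 CPM in every library, with Adgre1 and Cd3e at 0, and adipocyte markers under 0.4 CPM, with Adipoq at 0. In bulk RNA, fewer cells of a type and less RNA per cell cannot be told apart.

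Y551A, the line without Dim, is set beside these values because it shares the Y551A name; its comparison with WT uses the same WT libraries, and that with Y551A-Dim the same Y551A-Dim libraries. In EtOH 6855 genes (42.5%) were called between Y551A and WT, 3057 higher in Y551A (18.9%) and 3798 lower (23.5%), with 1488 (9.22%) of at least 1.5-fold. Between Y551A-Dim and Y551A 4677 genes (29%) were called, 2387 higher in Y551A-Dim (14.8%) and 2290 lower (14.2%), with 549 (3.4%) of at least 1.5-fold. Krt16 was at 5.904 ± 0.68 CPM in Y551A, above the 2.362 ± 0.189 CPM of Y551A-Dim and the 0.4057 ± 0.0275 CPM of WT (SD, n = 3), and differed between Y551A-Dim and Y551A (log2 -1.32, edgeR adjusted p = 1.78e-07). Tpsab1 was at 42.14 ± 2.56 CPM in Y551A against 8.076 ± 0.649 CPM in Y551A-Dim (log2 -2.38, edgeR adjusted p = 3.43e-15). Cp was at 43.55 ± 0.574 CPM in Y551A, lower than the 96.16 ± 3.13 CPM of Y551A-Dim (log2 1.14, edgeR adjusted p = 1.32e-14). For these 3 genes Y551A-Dim stood between WT and Y551A. The stress response list had a median of -0.61 in Y551A against WT, beside -0.36 in Y551A-Dim, and 23 of its 26 members were higher in Y551A-Dim than in Y551A. All 44 histone genes tested were lower in Y551A than in WT, with a median of -0.78 beside -0.20, and 29 of 34 cell cycle genes were called lower in Y551A beside 7 in Y551A-Dim. Other genes had another order. Ccn1, a matricellular relative of Ccn2, was at 342.4 CPM in Y551A, 165.4 ± 4.35 in WT and 128 ± 1.96 in Y551A-Dim, and Dusp6 was at 11.76 CPM in Y551A, between WT and the lower Y551A-Dim (log2 -0.69 between Y551A-Dim and Y551A, edgeR adjusted p = 3.15e-07). Immediate early genes had a median of 0.39 in Y551A against WT, with 14 higher and 3 lower, beside 2 higher and 10 lower in Y551A-Dim. Cdh5 and Nfkbia were at 3.177 and 29.97 CPM in Y551A and at 2.512 and 30.64 CPM in Y551A-Dim, and neither pair was called as different (edgeR adjusted p = 0.0502 and 0.745).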

How the data were processed

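Total RNA was sequenced as 100 bp paired-end reads. Per the submitters' processing notes, reads passed bcl2fastq 2.17, cutadapt and STAR against mm10. Per the file headers, the authors deposited counts per gene name made with featureCounts 2.0.3 over GENCODE exons, with the reverse-strand option (2). These raw counts were used as deposited, and of 55341 gene names 108 join several identifiers.

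Groups came from the labels. The 18 libraries of set 1 were fitted together with edgeR 4.0.16 (R 4.3.3) by its quasi-likelihood test, with filterByExpr, TMM scaling and a mean per group (16140 genes, 12 residual degrees of freedom), and p-values were adjusted by Benjamini-Hochberg over all genes. Fold changes use a prior count of 0.125, and genes at the low end are least precise. The 6 EtOH libraries held 52815890 to 64449628 counts. No 2 libraries of the same group agreed within sampling noise. The Drosophila spike-in was not used here, so changes are relative to the other genes. In data simulated for this comparison on 15415 genes, 83% of genes changed by 0.5 (log2) and 99% of those changed by 1 were recovered, with 12 false calls. The simulation drew every library from the WT EtOH means with independent noise per gene and 100 changed genes of each size. It held no chromosome-wide or library-wide differences, so its false calls do not give the error rate of these data.

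The members, the 32 gene lists and the tests were chosen with earlier results of these data known. Named were the 14 called genes at each end with no overlap between groups whose average level reached 1 log2 CPM, the 5 at each end above a level of 7, up to 4 called members per list with the lowest adjusted p (the lowest 1 where none was called), and a fixed set (Nr3c1, Hras, Per1, Tsc22d3, Fkbp5, Sgk1, Dusp1, Ccn2, Lcn2, Ccl2 and Cdkn1a). Predicted and clone-named genes were passed over. Any further list member given with a value was chosen after values were seen. Some genes that meet the rule are not reported here.

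Alternatives were RLE scaling, no filter, a 1.5-fold minimum, a replicate block, only the groups compared, exclusion of mitochondrial, histone and structural RNA genes, leaving out each library, and DESeq2 1.42.0. Length and GC offsets, exclusion of chromosome 1 and protein-coding genes only were added after seeing the data. Promoter sequences are RefSeq's (GRCm38.p6).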

Additional observations from a re-analysis of the deposited data

Results flagged for a closer look

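For 22 named genes the difference between Y551A-Dim and WT changed with treatment, by the test of the change itself (edgeR, quasi-likelihood, adjusted p below 0.05 by Benjamini-Hochberg over all genes). The values are the line difference in Dex minus that in EtOH on the log2 scale. Among GR-induced genes the change was -1.986 for Ccn2, -1.840 for Per1, -1.773 for Sgk1, -1.688 for Tsc22d3, -1.044 for Fkbp5, -0.864 for Dusp1 and -0.733 for Errfi1, while Ddit4, lower in EtOH, changed by 0.243. The adipocyte gene Fabp4 changed by -2.553 and the luminal factor gene Gata3 by -1.468. The protease gene Adamts1 changed by -0.598, the integrin gene Itga5 by -0.655 and Aldh1a1 by -0.575. The chemokine genes Ccl2 and Ccl7 changed by 1.239 and 1.166. Positive changes were found for Ier3 at 0.686, Plk2 at 0.555, Spry1 at 0.501, Klf4 at 0.476, Myc at 0.370 and Ccn1 at 0.361. The receptor transcript Nr3c1 changed by 0.261.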

How the results depend on the processing

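With a 1.5-fold minimum the baseline count of 3757 became 766, 556 higher and 210 lower; the counts were 798 for the lines in Dex, 91 for the dependence on treatment, 1488 for Y551A against WT and 549 for Y551A-Dim against Y551A. Without a filter on low counts 422 genes depended on treatment, against 238. Leaving out 1 library gave 2588 to 3407 baseline calls, 1153 to 1648 higher and 1376 to 1759 lower; the lower count was 1376 without WT replicate 1 and 1393 without WT replicate 2. The same step gave 3247 to 4349 calls in Dex, 194 to 335 for the dependence on treatment, 5994 to 6216 for Y551A against WT and 3976 to 4252 for Y551A-Dim against Y551A. Of the called genes, 43% were higher, against 51% when fitted on the groups compared alone and 53.5% with protein-coding genes only. DESeq2 called 1792 higher and 2059 lower.

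A replicate block gave 1580 higher and 2044 lower; same-numbered EtOH libraries of the 2 lines correlated between -0.119 and -0.033 in their deviations, so the numbers were not taken as pairs.

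Of 156 named genes 151 were called, 139 of these under every alternative that tested them, and 0 changed direction. Calls lost without 1 library were those of Fkbp5, H2-D1, B2m, Mcm2, Ptgs2, Cd14, Lyz2 and mt-Nd6, and Gata3 was called without Y551A-Dim replicate 1 (-0.331). Zeb2, Rpl7, mt-Rnr1 and mt-Rnr2 lost theirs with length and GC offsets, as did Fkbp5, Mcm2, Lyz2 and mt-Nd6. Pdgfrb was called with these offsets. The cause was not tested. Depth limits the genes with few reads, such as Lcn2.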

Other observations

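Genes of mesenchymal identity and development were called in both directions. The list counts that follow stand beside 10% of all genes called higher and 13.3% called lower, and the homeobox count is near these shares. Of 17 tested mesenchymal and fibroblast markers 5 were called higher and 6 lower. Postn, the matrix protein periostin, was at 5.152, 5.771 and 4.868 CPM in WT and 9.428, 9.681 and 11 CPM in Y551A-Dim (log2 0.93 ± 0.089, edgeR adjusted p = 1.94e-08), while Snai2, a repressor of epithelial genes, fell by 0.60 (SE 0.093, edgeR adjusted p = 2.98e-05). The count of 6 lower markers was 2 without WT replicate 1 or 3 and 3 without WT replicate 2 or Y551A-Dim replicate 1 or 3. Of 39 homeobox and developmental factor genes 2 were higher and 7 lower, and the 7 became 4 without Y551A-Dim replicate 2 or 3. The forkhead gene Foxc1 fell from 49, 47.49 and 46.72 CPM to 26.92, 25.54 and 27.42 CPM (log2 -0.84 ± 0.055, edgeR adjusted p = 1.61e-11), and Prrx2, a mesenchymal homeobox gene, fell by 0.69. Of 24 integrin and adhesion genes 2 were higher and 9 lower, with the leukocyte integrin subunit gene Itgb7 at -0.94. Of 28 YAP and TGF-beta targets 6 were higher and 6 lower. The receptor gene Tgfbr2 fell from 201.2, 203.4 and 202.1 CPM to 144, 152 and 141.4 CPM (log2 -0.47 ± 0.035, edgeR adjusted p = 1.44e-10), and Pmepa1, an inhibitor of that pathway, rose by 0.53. Of 29 matricellular and protease genes 7 were higher and 9 lower.

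The counts of the metabolic and immune lists stand beside 10% of all genes called higher and 13.3% called lower, and several are near these shares. Of 28 hypoxia and glycolysis genes 2 were higher and 7 lower. Adm, the vasodilator adrenomedullin, fell from 20.82, 19.82 and 19.26 CPM to 11.61, 12.33 and 13.41 CPM (log2 -0.68 ± 0.084, edgeR adjusted p = 1.11e-06), and the glucose transporter gene Slc2a1 and Vegfa fell by 0.34 and 0.31. Of 29 fatty acid genes 2 were higher and 9 lower, with the elongase gene Elovl5 and the desaturase gene Fads1 at -0.26 and -0.26. Of 20 unfolded protein response genes 1 was higher and 3 lower, or 5 without Y551A-Dim replicate 2. The 1 higher was the stress sensor gene Atf6, on chromosome 1 (0.12), and Edem1, of the degradation arm, fell by 0.40. Of 21 p53 targets 6 were higher and 5 lower, with Trp53 itself at -0.34 and Phlda3, on chromosome 1, at 0.43. Of 17 antigen presentation genes 0 were higher and 5 lower, with the class I gene H2-K1 at -0.32. That count was 2 or 3 without WT replicate 1 or 2 or any single Y551A-Dim library. Of 22 interferon response genes 3 were higher and 3 lower. Of the higher ones, Ifi204 and Ifi203 lie on chromosome 1. Of 14 prostaglandin and retinoid genes 2 were higher and 3 lower, of 14 mitochondrially encoded genes 3 were higher and 0 lower, and of 18 structural non-coding RNAs 4 were higher and 5 lower. The 5 became 3 without WT replicate 3 or Y551A-Dim replicate 1 or 2. The 3 mitochondrial calls, of mt-Rnr1, mt-Rnr2 and mt-Nd6, were lost with length and GC offsets. Of 11 basal markers 5 were higher and 2 lower, of 9 endothelial, muscle and neural markers 1 was higher and 2 lower, and of 6 immune markers 1 was higher and 1 lower. Of 6 luminal markers 0 were called, and of 7 imprinted genes 1 was lower (Gnas, -0.21) and 0 higher.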
